A study of Mus musculus with 13 samples.

Results

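Junctions between a nuclease break in the immunoglobulin heavy chain locus (IgH) and the switch regions Sγ3, Sγ2b and Sγ2a were examined in mouse B and T cells, with libraries baited at c-myc as the contrast from another chromosome. The junctions were taken as every chromosome 12 line whose gene label was Sg3, Sg2b or Sg2a, whichever library it came from. They numbered 64 of the 16455 deposited junctions, of which 56 carried Sg3, 7 carried Sg2b and 1 carried Sg2a. IgH B-cell replicates 19, 21 and 23 held 15, 41 and 5 of them. IgH T-cell replicate 19 held 3, and the other two IgH T-cell libraries and the 7 c-myc libraries held 0.

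The libraries came from high-throughput genome-wide translocation sequencing (HTGTS), which amplifies from a fixed break, the bait, and reads whatever sequence, the prey, was joined to it. The bait was cut by the I-SceI nuclease, and the series compared how often such breaks at IgH and at c-myc joined distant breaks on their own chromosome in different cell types. The IgH B cells (3 libraries) were splenic B cells of genotype IgH2-28xI activated with anti-CD40/IL-4, and the IgH T cells (3 libraries) were splenic T cells of the same genotype activated with ConcanavalinA/IL-2. The c-myc B cells (3 libraries) were splenic B cells of genotype c-myc25-2xI activated with anti-CD40/IL-4. The c-myc fibroblasts (4 libraries) were SV40-transformed tail fibroblasts of genotype c-myc25xI;RosaI-SceI-GR without activation, and so differed from the c-myc B cells in genotype as well as in cell type. Activated B cells and T cells likewise differed in cell type and stimulus together, and these cannot be told apart. The labels give no age, strain or number of animals and do not say that replicates came from separate animals, so each p-value measures only the spread between these libraries. The tables hold DNA junctions and no expression values, and cell types were taken from the labels. Depth ranged from 483 to 1115 junctions per library in IgH B cells, from 387 to 2707 in IgH T cells, from 878 to 2918 in c-myc B cells and from 562 to 980 in the fibroblasts.

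Switch regions are long stretches of repeated G-rich sequence upstream of the heavy chain constant genes. In activated B cells the cytidine deaminase AID initiates breaks in them, often at AGCT motifs, and class switch recombination joins the donor region Sμ to a downstream acceptor. Stimulation through CD40 with IL-4 is known for directing switching to Sγ1 and Sε, whereas Sγ3, Sγ2b and Sγ2a are acceptors favoured under other stimuli. T cells do not normally undergo class switching. In the RefSeq gene table for mouse the constant genes follow each other as Ighm, Ighd, Ighg3, Ighg1, Ighg2b, Ighg2c, Ighe and Igha. The deposited labels speak of Sg2a, and the RefSeq table has Ighg2c at that place. The IgH bait peak lay at 114577038 of chromosome 12 (mm9), and the partner peak, the other induced break, lay at 114664493, which is 87.5 kb away on the Sμ side. Sγ3 lies between these breaks, and Sγ2b, Sγ2a and Sε lie beyond the bait on the far side. The IgH constant genes read toward lower coordinates, and their coding strand is the complement of the + strand printed here.

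The sequences below are the mm9 reference under the prey part of the read, on the + strand, with each AGCT in capitals. AGCT reads the same on both strands. The unbroken Sγ3 alignment with the most bases, up to 300, is shown for each IgH B-cell library, together with the only Sγ3 alignment of T cells, to let the repeats that carry the junctions be seen.
Sγ3, IgH B cells replicate 19, chr12:114602189-114602414, - strand junction: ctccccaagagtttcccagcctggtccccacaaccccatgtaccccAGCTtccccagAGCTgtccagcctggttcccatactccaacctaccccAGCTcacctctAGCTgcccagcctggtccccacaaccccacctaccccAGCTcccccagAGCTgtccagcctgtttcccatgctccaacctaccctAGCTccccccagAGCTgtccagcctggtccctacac
Sγ3, IgH B cells replicate 21, chr12:114601026-114601323, + strand junction: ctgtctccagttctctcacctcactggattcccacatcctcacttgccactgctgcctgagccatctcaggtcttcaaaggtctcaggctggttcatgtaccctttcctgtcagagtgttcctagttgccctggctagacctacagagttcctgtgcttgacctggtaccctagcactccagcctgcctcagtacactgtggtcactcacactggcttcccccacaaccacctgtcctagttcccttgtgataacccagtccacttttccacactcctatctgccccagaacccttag
Sγ3, IgH B cells replicate 23, chr12:114602825-114602881, - strand junction: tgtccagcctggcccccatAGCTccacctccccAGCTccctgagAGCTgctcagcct
Sγ3, IgH T cells replicate 19, chr12:114603742-114603866, + strand junction: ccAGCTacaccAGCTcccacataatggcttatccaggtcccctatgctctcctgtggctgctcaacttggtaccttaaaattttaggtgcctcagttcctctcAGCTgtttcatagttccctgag
The fragments from replicates 19 and 23 and from T cells held 8, 3 and 3 AGCT motifs, and the one from replicate 21, which lay nearer to the lower end of the region, held 0. All Sγ2b and Sγ2a alignments are shown as well, because these regions yielded so few that the evidence for them is the reads themselves.
Sγ2b, IgH B cells replicate 19, chr12:114552128-114552158, - strand junction: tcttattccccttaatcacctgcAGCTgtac
Sγ2b, IgH T cells replicate 19, chr12:114551506-114551700, - strand junction: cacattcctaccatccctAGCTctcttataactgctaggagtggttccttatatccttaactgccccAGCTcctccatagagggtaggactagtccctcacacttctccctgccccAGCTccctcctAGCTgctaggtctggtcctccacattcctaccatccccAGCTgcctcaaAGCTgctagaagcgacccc
Sγ2b, IgH B cells replicate 23, chr12:114551505-114551542, - strand junction: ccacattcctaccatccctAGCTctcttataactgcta
Sγ2b, IgH B cells replicate 19, chr12:114548246-114548364, - strand junction: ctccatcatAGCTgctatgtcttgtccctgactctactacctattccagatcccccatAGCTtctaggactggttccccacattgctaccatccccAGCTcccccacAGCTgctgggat
Sγ2b, IgH B cells replicate 21, chr12:114547744-114547840, - strand junction: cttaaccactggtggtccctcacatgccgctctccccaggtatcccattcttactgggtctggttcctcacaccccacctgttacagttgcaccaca
Sγ2b, IgH B cells replicate 21, chr12:114547765-114547834, - strand junction: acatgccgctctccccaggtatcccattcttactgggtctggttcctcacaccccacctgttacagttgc
Sγ2b, IgH T cells replicate 19, chr12:114546628-114546723, - strand junction: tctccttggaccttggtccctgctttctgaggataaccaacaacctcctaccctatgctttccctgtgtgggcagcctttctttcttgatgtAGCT
Sγ2a, IgH B cells replicate 23, chr12:114530314-114530346, - strand junction: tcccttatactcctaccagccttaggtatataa
The pair of Sγ2b fragments from B-cell replicate 21 ended 6 bp apart on the genome. The T-cell fragment ending at 114551700 covered nearly all of the B-cell fragment ending at 114551542, although the junctions themselves lay at different positions. No position and strand of these labels was shared between libraries, as the count of such pairs was 0.

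Sγ3, the switch region of IgG3, was joined to the IgH bait in every B-cell library and in a single T-cell read. Sγ3 took 13 of 933 junctions in IgH B-cell replicate 19, which is 1.39% (95% Wilson interval 0.816 to 2.37). It took 39 of 1115 junctions in replicate 21, which is 3.50% (2.57 to 4.75). It took 3 of 483 junctions in replicate 23, which is 0.621% (0.211 to 1.81). Replicate 21 therefore held most of the Sγ3 junctions, and replicate 23 had the lowest share of the B cells.

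In IgH T cells, replicate 19 held 1 Sγ3 junction of 1253, which is 0.0798%. Replicate 21 held 0 of 2707 and replicate 23 held 0 of 387, which allow shares of up to 0.111% and 0.775%. The limit of T-cell replicate 23 lies above the share of B-cell replicate 23, so those libraries alone could not separate the cell types at this depth. The B-cell mean was 1.84% ± 1.49 (SD, n = 3) and the T-cell mean 0.0266% ± 0.0461 (SD, n = 3), a difference of 1.81 percentage points. Every B-cell library was above every T-cell library, but the exact permutation test (two-sided) gave p = 0.1, the smallest that 3 against 3 libraries allow, and p = 0.14 after Benjamini-Hochberg adjustment over the 7 gene labels with at least 5 junctions in these groups. Of those 7 labels, 5 had all B-cell libraries above all T-cell libraries, which is 71.4%, so the separation was the usual outcome among labels and is not particular to Sγ3. No label passed 0.05 before or after adjustment, and the count was 0 of 7 in either case.

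The size of the Sγ3 difference rested in large part on B-cell replicate 21. Without that library the difference from T cells was 0.981 points, against 1.81 with it, and every remaining B-cell library still lay above every T-cell library. Pooled over libraries, 55 of 2531 B-cell junctions and 1 of 4347 T-cell junctions carried Sg3, a 94.5-fold ratio with an exact 95% interval for counting error of 16.3 to 3798. The ratio was 49.1 without B-cell replicate 21 and 35.6 without T-cell replicate 21. T-cell replicate 19 held the only T-cell junction. Without that library, the measured B-cell share was 22.4 times the limit of 3 junctions over the other T-cell libraries. That last ratio leaves out the counting error of the B-cell share. The run number in the read names was 11 for replicates 19 and 21 of both groups and 6 for replicate 23. Within run 11 the means were 2.45% and 0.0399%, and within run 6 the values were 0.621% and 0%.

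**Figure D1:**
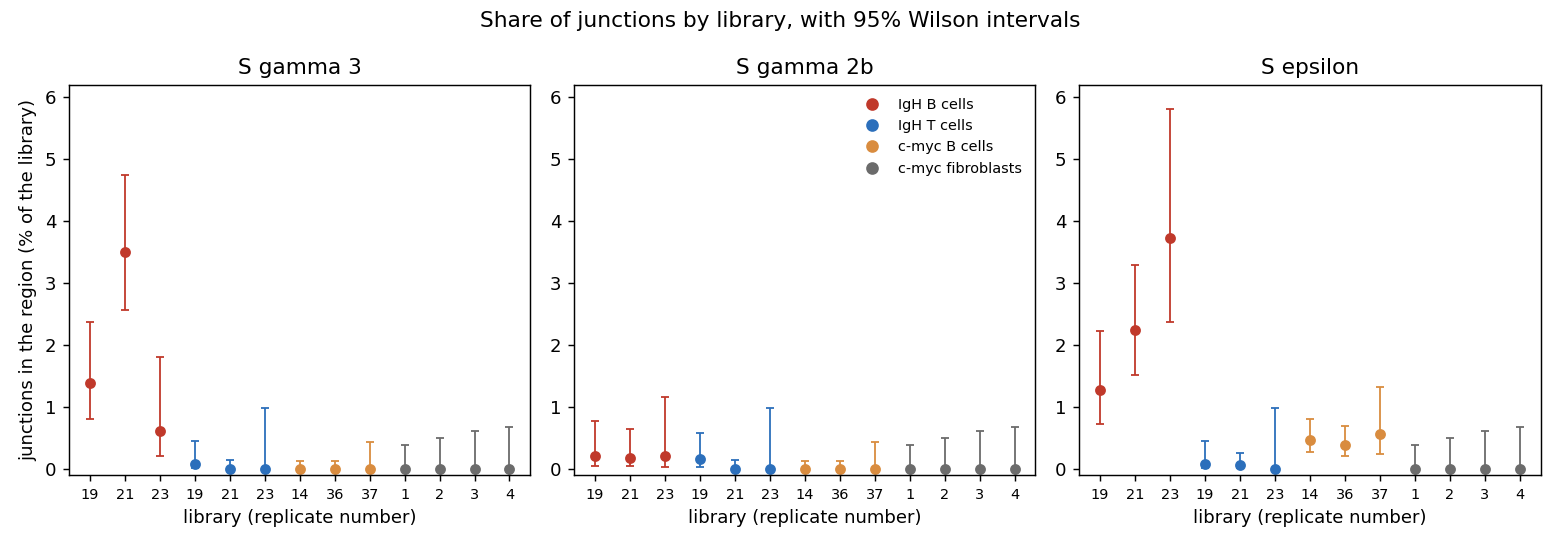
Share of each library's junctions labelled Sγ3, Sγ2b or Sε in percent (y axis) for all 13 libraries (x axis, replicate numbers), with points coloured by group and bars for 95% Wilson intervals. Sγ3 points of the 3 IgH B-cell libraries lie at 0.621 to 3.50%, Sγ2b points lie at 0.179 to 0.214% there, and c-myc B cells have points above 0 for Sε only.

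Sγ2b, the switch region of IgG2b, was rare in both cell types. It took 2 of 933, 2 of 1115 and 1 of 483 junctions in IgH B-cell replicates 19, 21 and 23, which are 0.214%, 0.179% and 0.207%. In IgH T cells it took 2 of 1253 junctions in replicate 19, which is 0.160%, and 0 in replicates 21 and 23. The B-cell values lay close together, and the highest T-cell value came just below the lowest B-cell value. The means were 0.200% ± 0.0185 (SD, n = 3) and 0.0532% ± 0.0922 (SD, n = 3), with exact permutation p = 0.1, the smallest possible, and adjusted p = 0.14. The pooled ratio was 4.29 with an exact interval of 0.703 to 45.1, which includes no difference. Without T-cell replicate 21 the ratio was 1.62. Without T-cell replicate 19 the measured B-cell share was 2.04 times the limit of 3 junctions, which leaves out the counting error of that share. The separation was lost when reads that may be copies of 1 molecule were counted once, since B-cell replicate 21 then had 0.0897%, below T-cell replicate 19, and the exact permutation p was 0.2. It was also lost when alignments under 50 bases were left out, where the difference was 0.0464 points (exact permutation p = 0.7), and when shares were taken of junctions more than 10 kb from both breaks, where the means were 1.09% in B cells and 0.939% in T cells (exact permutation p = 1). A difference in Sγ2b between the cell types was thus not detectable at this depth.

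Sγ2a, the switch region of IgG2a or of IgG2c in the strains that carry it, gave 1 junction in all 13 libraries. It came from IgH B-cell replicate 23, where it made up 0.207% of 483 junctions, and its prey alignment spanned 33 bases. B-cell replicates 19 and 21 had 0, which allow up to 0.322% and 0.269%, and the pooled T cells had 0 of 4347, which allow up to 0.0690%. No test was made on 1 junction.

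The c-myc libraries asked whether the same switch regions were reached from a break on another chromosome. In c-myc B cells, stimulated in the same way, Sγ3, Sγ2b and Sγ2a together took 0 of 2918, 0 of 2850 and 0 of 878 junctions in replicates 14, 36 and 37. Pooled, 0 of 6646 junctions allow a share of up to 0.0451% for each region. The c-myc fibroblasts had 0 of 980, 0 of 769, 0 of 620 and 0 of 562, and the pooled 0 of 2931 allow up to 0.102%. Replicates 14 and 36 were deeper than any IgH B-cell library, and the limit of replicate 37, 0.342%, lies below every IgH B-cell value for Sγ3 but above those for Sγ2b. The median prey alignment was 49, 105 and 92 bases in c-myc B-cell replicates 14, 36 and 37. It was 116, 132 and 78 bases in IgH B-cell replicates 19, 21 and 23. Whether alignment length affected placement in these regions was not tested.

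The measured Sγ3 share of the pooled IgH B cells was 48.1 times the limit of 3 junctions over the pooled c-myc B cells. For Sγ2b the ratio to that limit was 4.38. Against the fibroblast limit, the ratios were 21.2 for Sγ3 and 1.93 for Sγ2b. These ratios leave out the counting error of the IgH B-cell share, which for Sγ2b rests on 5 junctions, so they are not lower bounds. They also moved with single libraries. For Sγ3 against c-myc B cells the ratio was 25.0 without IgH B-cell replicate 21, 27.0 without c-myc B-cell replicate 14 and 27.5 without replicate 36. For Sγ2b it was 2.45 and 2.50 without the latter libraries. Against the fibroblast limit it was 11.0 for Sγ3 without IgH B-cell replicate 21. Without fibroblast replicate 1 it was 14.1 for Sγ3 and 1.28 for Sγ2b. The difference between IgH B cells and c-myc B cells was 1.84 points for Sγ3 and 0.200 points for Sγ2b, each with exact permutation p = 0.1 and adjusted p = 0.13 over 13 labels. All IgH B-cell libraries lay above all c-myc B-cell libraries for 5 of those 13 labels, which is 38.5%, and below them for another 38.5%. The run numbers were 11, 11 and 6 in the IgH B cells and 16, 9 and 14 in the c-myc B cells, with none in common. Bait locus, genotype and run therefore differ together in this contrast and cannot be told apart. Without IgH B-cell replicate 21 the Sγ3 difference was 1.01 points.

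The other switch labels show that c-myc B cells did reach IgH. Sε, the switch region of IgE and a main target under IL-4, took 12, 25 and 18 junctions in IgH B-cell replicates 19, 21 and 23, which are 1.29%, 2.24% and 3.73%. It took 14, 11 and 5 junctions in c-myc B-cell replicates 14, 36 and 37, which are 0.480%, 0.386% and 0.569%. The pooled share of Sε was 4.81 times as high in IgH B cells (exact interval 3.03 to 7.78), and that of Sγ3 had no count to divide by. Sγ1, Sμ and Sα, the switch regions of IgG1, IgM and IgA, took 106, 103 and 3 junctions of c-myc B cells, against 114, 5 and 0 of IgH B cells. The plain Sμ label ran the other way from Sε, with means of 0.173% in IgH B cells and 1.78% in c-myc B cells. For that label every c-myc library lay above every IgH library (exact permutation p = 0.1, adjusted p = 0.13). A further 29 junctions of IgH B cells carried a separate trans Smu label, which no c-myc junction carried. That label alone took 1.07%, 1.17% and 1.24% of IgH B-cell replicates 19, 21 and 23. Sμ took 0.788%, 2.04% and 2.51% of c-myc B-cell replicates 14, 36 and 37. With both labels counted the libraries therefore overlapped, and the separation holds for the plain label only. The Sγ1 means were 4.25% and 2.03%, and the libraries overlapped (exact permutation p = 0.2). In the gene order above, Sγ1 lies between Sγ3 and Sγ2b, the interval that also holds the bait. IgH T cells held 96 Sγ1 junctions, a mean of 2.11%, so Sγ1 joins from this bait were not limited to B cells. How many of the Sγ1 junctions lay close to the bait was not examined. All switch labels were at 0 in the fibroblasts, and Sα was at 0 in IgH T cells as well.

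Because library size cancels, Sγ3 was also set against Sε within each library. Sγ3 made up 13 of the 25 junctions in either region in IgH B-cell replicate 19, which is 52.0%, 39 of 64 in replicate 21, which is 60.9%, and 3 of 21 in replicate 23, which is 14.3% (Wilson interval 4.98 to 34.6). In c-myc B cells it made up 0 of 14, 0 of 11 and 0 of 5. All IgH values lay above the c-myc values, by 42.4 points between the means, with exact permutation p = 0.1. Leaving out any library gave 33.1 to 56.5 points. The upper Wilson bounds of the c-myc libraries were 21.5%, 25.9% and 43.4%, so that replicate 23 of the IgH B cells could not be told from them by counting error alone. Across the IgH B cells the order of the libraries differed between the regions, since Sγ3 was highest in replicate 21 and Sε in replicate 23.

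The Sγ3 junctions lay in a compact stretch between the induced breaks. In IgH B cells they ran from 114599736 to 114603625 of chromosome 12, a span of 3889 bp with its median at 114602881, which put them 22.7 to 26.6 kb above the bait peak and 60.9 to 64.8 kb below the partner peak. Per kilobase above the bait, the counts were 2 from 22 to 23 kb, 4 from 23 to 24 kb, 5 from 24 to 25 kb, 24 from 25 to 26 kb and 20 from 26 to 27 kb. Most junctions therefore lay in the upper end of the stretch, toward Sμ, where replicate 19 had 11 of its 13, replicate 21 had 31 of its 39 and replicate 23 had 2 of its 3. The T-cell junction lay at 114603742, which is 26.7 kb above the bait and above the highest B-cell position.

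**Figure D2:**
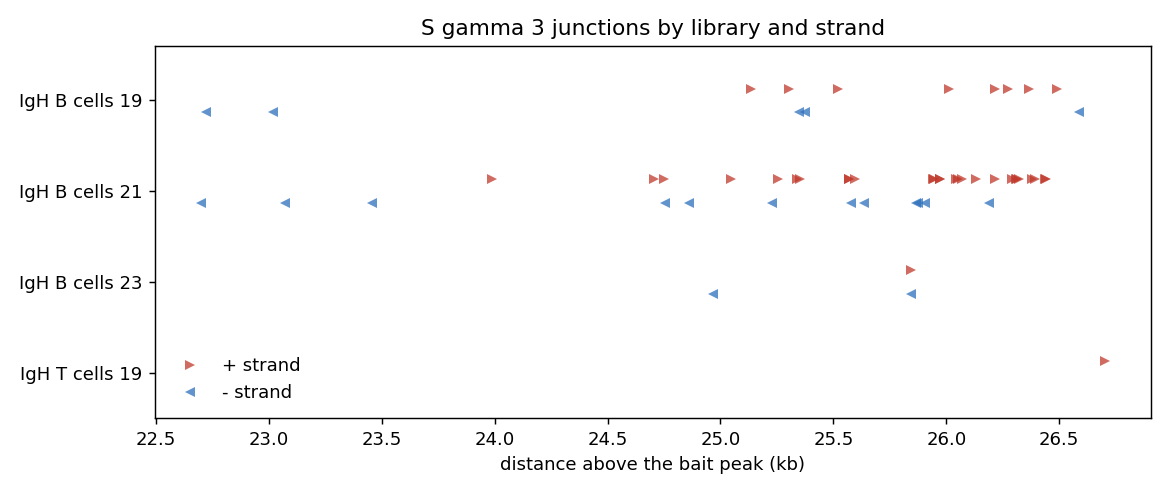
Each Sγ3 junction by its distance above the bait peak in kb (x axis) and its library (y axis), with right-pointing markers for the + strand and left-pointing markers for the - strand. Junctions of all 3 IgH B-cell libraries are denser above 25 kb, and the only IgH T-cell junction lies at 26.7 kb.

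The stretch stood out from the sequence on either side in B cells. Over the 4007 bp from the lowest to the highest labelled Sγ3 position, B cells had 55 junctions, against 4 in the same length below it and 6 in the same length above it. T cells had 1 within the stretch, 5 below it and 4 above it, so their junctions there were no denser than beside it. In B cells, the replicates 19, 21 and 23 had 13, 39 and 3 within the stretch, 2, 2 and 0 below it and 4, 2 and 0 above it. The limits of the stretch were set by the labelled junctions themselves, so these counts are a description.

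Sγ2b showed no such contrast with its surroundings. Its 7 junctions ran from 114546723 to 114552158, and the B-cell junctions lay 24.9 to 29.2 kb below the bait. Over those 5436 bp, B cells had 5 junctions, with 1 in the same length below and 5 in the same length above, nearer to the bait. T cells had 2 within it, 2 below and 1 above. The Sγ2a junction lay at 114530346, which is 46.7 kb below the bait.

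**Figure D3:**
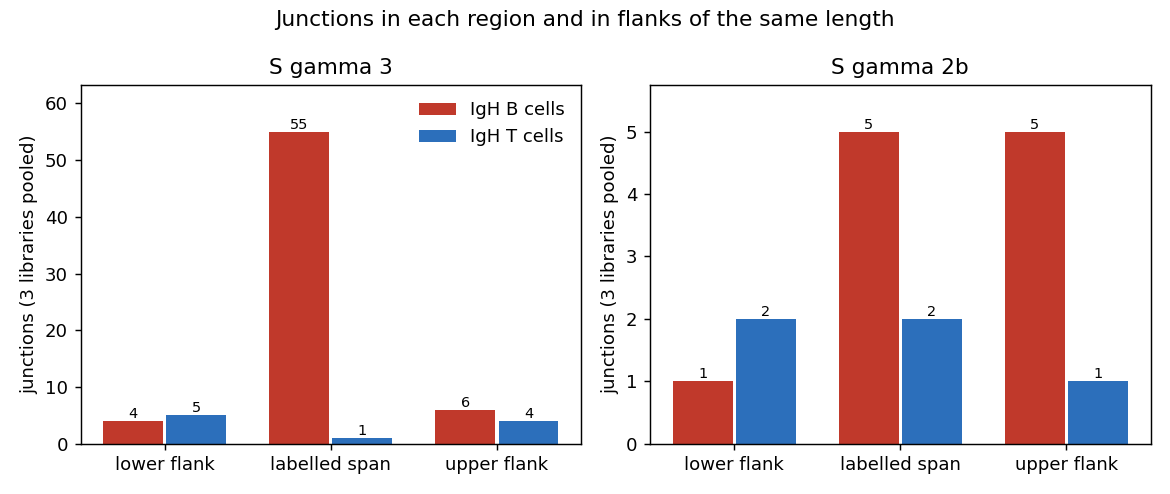
Junctions within the span of labelled positions and in flanks of the same length (x axis) for Sγ3 (4007 bp) and Sγ2b (5436 bp), with the 3 libraries of IgH B cells and of IgH T cells pooled (y axis, number of junctions). The B-cell bar for Sγ3 stands at 55 against 4 and 6 beside it, while that for Sγ2b equals its upper flank at 5.

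Along the locus as a whole the Sγ3 stretch formed a separate rise in B cells. In bins of 5 kb, B cells had 5.53 junctions per 1000 from 20 to 25 kb above the bait and 19.8 from 25 to 30 kb, where T cells had 0.690 and 1.15. The bins next to these had 0.790 per 1000 below them and 0.395 above them in B cells, and 1.84 and 0 in T cells. Near Sγ2b, from 30 to 25 kb below the bait, the values were 1.58 in B cells and 0.230 in T cells. The next bin nearer to the bait had 2.37 and 0.230, and the next one farther away had 0.395 and 0.690. The bin edges cut the Sγ2b span, so that the B-cell junction at 24.9 kb and the T-cell junction at 30.3 kb fell into these neighbours.

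**Figure D4:**
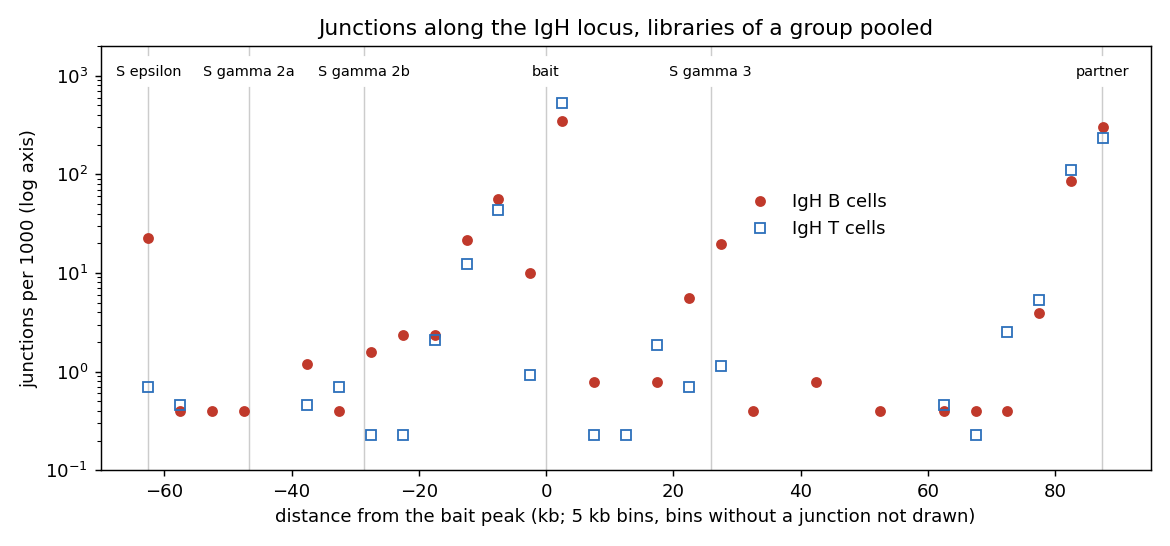
Junctions per 1000 of the pooled libraries of a group (y axis, log scale) in 5 kb bins by distance from the bait peak in kb (x axis), with filled circles for IgH B cells, open squares for IgH T cells and grey lines for the peaks and the median position of each switch label. The B-cell points of 5.53 and 19.8 at Sγ3 stand above the T-cell points of 0.690 and 1.15 and above their neighbours.

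A junction on the + strand has prey that reads on toward higher coordinates from the joint, and one on the - strand has prey that reads toward lower coordinates. At the unlike distances examined, the strand followed the side of the IgH bait. The 5 kb just below the bait peak, which held 25 B-cell and 4 T-cell junctions, was not examined for strand. Of the 3113 IgH junctions up to 5 kb above the bait peak, 94.5% were on the + strand, and of the 334 junctions from 5 to 10 kb below it, 13.8% were. Sγ3 junctions fell on both strands. The + strand took 8 of 13 in B-cell replicate 19, 27 of 39 in replicate 21 and 1 of 3 in replicate 23, which is 36 of 55 in all or 65.5% (Wilson interval 52.3 to 76.6). That interval treats each line as independent. With reads that may be copies of 1 molecule counted once, 30 of 48 were on the + strand. No interval was computed for that count. The T-cell junction was on the + strand. The split changed along the stretch, with 3 of the 11 junctions below 25 kb on the + strand, 15 of 24 from 25 to 26 kb and 18 of 20 from 26 to 27 kb. With possible copies counted once per bin, the + strand took 0 of 2, 1 of 4 and 1 of 4 in the bins below 25 kb. It took 13 of 21 from 25 to 26 kb and 17 of 19 from 26 to 27 kb. Some reads that may be copies of 1 molecule were placed in several of these bins.

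Sε, which lies on the other side of the bait, had its + strand share set beside that of Sγ3 in the same libraries. It was 10 of 12, 20 of 25 and 17 of 18, or 47 of 55 in all, which is 85.5%. The + strand share of Sγ3 was lower than that of Sε in all 3 libraries, by 21.8, 10.8 and 61.1 points in replicates 19, 21 and 23. The mean difference was -31.2 points, and the exact sign-flip permutation test gave p = 0.25, the smallest that 3 pairs allow. Without replicate 23, whose Sγ3 share rests on 3 junctions, the mean difference was -16.3 points. In c-myc B cells, where the bait lies on another chromosome, 17 of 30 Sε junctions were on the + strand. All 5 Sγ2b junctions of B cells, both of T cells and the Sγ2a junction were on the - strand.

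Reads that might descend from the same molecule were grouped into families, by the same strand and library and nearly the same read sequence. The 55 Sγ3 lines of IgH B cells formed 48 families, with 13, 32 and 3 in replicates 19, 21 and 23. The share of replicate 21 was then 2.87% (Wilson interval 2.04 to 4.02), which overlaps the interval of replicate 19, whereas the interval from its lines did not. The mean over the libraries was 1.63% ± 1.14 (SD, n = 3), and every B-cell library stayed above every T-cell library. Sε lines in the same libraries formed 47 families of 55 lines, so the reduction was of similar size there.

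The family with the most lines held 5 reads of replicate 21 that differed from each other by at most 1% of their bases. They had been placed at 114601744, 114601789, 114602294, 114602609 and 114603081, which spans 1337 bp of the Sγ3 repeat. The reason for showing their sequence is that all of them read the same 30 bases from base 75 of the read, with AGCT in capitals.
Sγ3, IgH B cells replicate 21, shared by the 5 reads: AGCTgcccagcctagtccccacatccccac
Single positions within the repeat are therefore less certain than the label. Position 114602609 on the + strand was the only one held by 2 lines of a library, and 1 of these belonged to that family. No other line of any library matched the family's read at the lowest position over bait and prey together. The prey sequence alone was not searched for in the other reads.

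**Figure D5:**
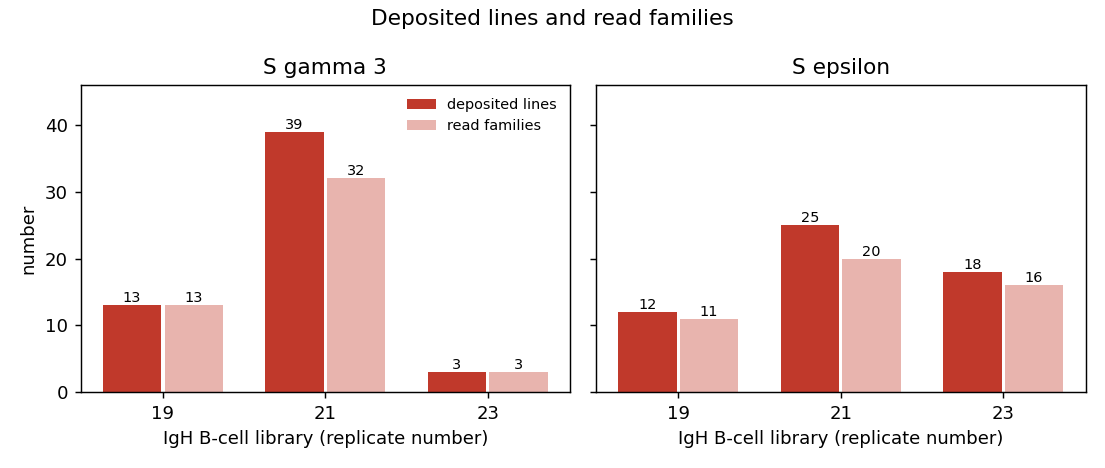
Number of deposited lines and of read families (y axis) labelled Sγ3 and Sε in IgH B-cell replicates 19, 21 and 23 (x axis). Sγ3 in replicate 21 goes from 39 lines to 32 families and Sε from 25 to 20, and Sγ3 in replicates 19 and 23 stays at 13 and 3.

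The Sγ3 reads could be compared with parts of the other switch regions, since the deposited alignments carry the reference bases. The first 40 prey bases of each read were compared with the reference bases covered by junctions of the other switch labels. Of 53 Sγ3 reads long enough, 0 fitted another label as well as their own, with a median of 0 edits to their own place and of 11 to the nearest other label, of which the lowest was 7. The nearest other label was Sγ1 for 35 of them. Another place within Sγ3 fitted 4 of them as well as the deposited one. Of the 7 Sγ2b reads, 5 were long enough, and 0 of them fitted another label as well. Only reference bases that some junction covered could be searched. For Sγ2b 539 bases were covered, and the 33 of Sγ2a were too short to enter. The own place was the one the deposited alignment had chosen, which favours it, so the comparison is no independent check of the label.

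AGCT was common next to the Sγ3 junctions, although the printed fragment of replicate 21 held 0. In the first 50 reference bases of the prey, 29 of 35 unbroken Sγ3 fragments of IgH B cells held AGCT, which is 82.9%, at 2.86 motifs per 100 bases. With 1 fragment per read family the share was 81.8%. It was 29 of 36 for Sε in the same cells, which is 80.6%, and 17.0% of 100 fragments for Sγ1, which lies in the interval that holds the bait. On other chromosomes it was 21.2% of 146 fragments in IgH B cells and 24.6% of 65 in IgH T cells. Of the Sγ2b fragments with 50 bases, 1 of 3 from B cells and 2 of 2 from T cells held AGCT. In the 38 of 40 unbroken fragments of each region that held an AGCT at any distance, the nearest began a median of 19.5 bases from the joint in Sγ3 and 18 bases in Sε. G made up 41.5% and C 16.6% of the coding strand in the Sγ3 windows. On other chromosomes the complement of the + strand, whatever gene lay there, had 21.6% and 20.7% in IgH B cells. In the same cells G was 37.1% for Sε, 36.3% for Sγ1 and 38.7% for the 3 Sγ2b fragments, so high G was not particular to Sγ3. These values describe the regions that were joined, not the sites where breaks began.

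The form of the joint was read from the same reads, by setting the end of the bait sequence against the start of the prey. Overlapping bases count as microhomology, a direct meeting as blunt, and read bases placed with neither as an insertion. Of 43 Sγ3 joints in IgH B cells that could be classified, 17 had microhomology, which is 39.5%, 2 were blunt and 24 had an insertion, which is 55.8%. The microhomologies had a median of 2 bases and at most 4, and the insertions a median of 18.5 bases. With 1 read per family, 16, 2 and 18 of 36 joints fell in these classes. Sε joints in the same cells were 13, 9 and 14 of 36, with a median insertion of 5.5 bases. Among joints outside both break windows and without the 3 labels, 56.5% of 283 had microhomology and 30.7% an insertion. The differences between these sets were not tested. Since the start of the prey is where the deposited alignment starts, an insertion here can include prey bases that were not aligned.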

How the data were processed

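Each deposited line was 1 sequenced junction with its prey position, strand, aligned reference bases, read and gene label, per the file headers. The deposited alignment score, per the file headers, was kept as the authors' aligner gave it and was not used for filtering. Positions are in mm9, the build in the submitters' processing notes. For the aligner, the filters and the handling of duplicate reads, the methods were not given in the sources used here. Libraries held 387 to 2918 lines, which limits rare labels. No mm9 genome was used, and gene order came from RefSeq.

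Shares are lines with a label as percent of a library's lines. The alignment start was counted from 0 in the tables, and positions here are counted from 1. The peaks were the 2 highest 5 kb windows of chromosome 12 at least 20 kb apart. Library shares were tested between groups by exact two-sided permutation, with Benjamini-Hochberg adjustment over all labels with at least 5 junctions. Tests of the Sγ3 part of Sγ3 plus Sε and of strand, 1 each, were not adjusted. Wilson 95% intervals and limits from 3 counts cover counting error only, and PCR copies are not independent molecules. Read families joined lines of a library and strand whose reads differed by at most 10% of bases, or 15% where the projected read starts lay within 3 bases. The scripts were tested on simulated data and ran in Python 3.11.15 with numpy 2.4.6, pandas 2.3.3 and scipy 1.17.1.

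Named were the 3 labels, the other switch labels, every Sγ2b and Sγ2a junction, the T-cell Sγ3 junction, the outermost Sγ3 positions and positions held by several lines. The read family and its positions were added after their values were seen. The members and lists were chosen with earlier results of these data known. IgH B and T libraries share the numbers 19, 21 and 23 in their titles. Deviations from the group means over 7 labels correlated at r = 0.940, 0.456 and 0.852 between libraries of the same number. The numbers were therefore used as pairs in an alternative, the replicate block. The main tests between IgH B and T cells took the libraries as unpaired. The labels do not say what the numbers stand for. Alternatives changed the counting, denominator, alignment length, region limits, label minimum and libraries.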

Additional observations from a re-analysis of the deposited data

How the results depend on the processing

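With 3 libraries a group no setting could pass 0.05, so only directions and sizes can be followed. The Sγ3 difference between IgH B and T cells was positive in 13 of 13 alternatives and that from c-myc B cells in 12 of 12. The latter count was fixed in advance, because c-myc B cells had 0 Sγ3 junctions, so only its sizes are of use. The count against T cells says little either, because T cells held 1 Sγ3 junction in all. The replicate block, the label minimum and the region limits also returned the main value of 1.81 points. Leaving out each library in turn gave 0.981 to 2.42 points against T cells and 1.01 to 2.45 against c-myc B cells for Sγ3, the lowest without B-cell replicate 21. The same gave 0.120 to 0.200 and 0.193 to 0.211 for Sγ2b, and 0 to 0.104 in both contrasts for Sγ2a, whose difference of 0.0690 points rests on B-cell replicate 23. It gave 33.1 to 56.5 points for the Sγ3 part of Sγ3 plus Sε and -41.5 to -16.3 for strand. With junctions within 10 kb of the breaks left out of the denominator, the Sγ3 differences were 9.18 and 9.65 points, the Sγ2b ones 0.153 and 1.09, and the Sγ2a ones 0.397 in both contrasts. The Sγ3 means were then 9.65% in IgH B cells and 0.469% in IgH T cells, against 1.84% and 0.0266% of all junctions. The ratio of the means was therefore smaller with this denominator, although the difference in points was larger. With alignments of at least 50 bases, Sγ2a was at 0 in all libraries, and Sγ2b differed from c-myc B cells by 0.109 points (exact permutation p = 0.4). In the IgH comparison, the replicate block gave the same differences of 1.81, 0.147 and 0.0690 points for Sγ3, Sγ2b and Sγ2a, with an exact sign-flip p of 0.25 for Sγ3 and Sγ2b, the smallest that 3 pairs allow, and no test for Sγ2a. IgH and c-myc B-cell libraries share no replicate numbers, so no paired analysis was possible there. With no minimum per label the adjusted p was 1 for each label. Counting 1 line per read family, chosen after seeing the data, gave 1.60 points for Sγ3 and 0.117 for Sγ2b against T cells. With 1 junction per position and strand the Sγ3 difference was 2.18 points. Pooled ratios without single libraries were added after seeing the data, and the Sγ3 ratio of B to T cells went from 94.5 down to 35.6 where T cells still held a junction. Depth limits the rare labels, since a count of 0 allows up to 0.775% in T-cell replicate 23 and 0.111% in T-cell replicate 21, against Sγ2b shares of 0.179 to 0.214% in B cells.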
